A study of Mus musculus with 12 samples.

Results

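Spi1, Fli1 and Etv6 encode members of the ETS family of transcription factors, and their loci were described by the DNase I accessible sites around them. A site belonged to a locus where a deposited DNase-seq peak overlapped a fixed window on build mm9: chr2:90900000-90970000 for Spi1, chr9:32210000-32370000 for Fli1 and chr6:133970000-134230000 for Etv6. The windows are 70, 160 and 260 kb long and hold flanking DNA as well as the genes. They held 828 of the 1600000 peaks in 16 lists, of which 607 came from 12 lists of single libraries and the others from 4 lists that the authors made from pooled replicates. Merging the peaks of the 12 lists wherever they shared at least 1 bp gave 138 regions of 265371 genome-wide, with 19 at Spi1, 33 at Fli1 and 86 at Etv6.

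DNase-seq maps the places where DNase I cuts chromatin most readily, which are mostly promoters and enhancers. The libraries came from 2 mouse erythroid lines of strain 129 origin. G1E is a line made from embryonic stem cells by disrupting the gene of GATA1, the transcription factor that red cells need to mature, and its cells were Ter119-negative with or without CD71. G1E-ER4 is a derivative of G1E that carries an estradiol-inducible GATA1, was given 100 nM estradiol for 22 h in every library, and was Ter119+CD71+. Each line was taken as an asynchronous culture or as mitotic cells, the latter held for 7 h in nocodazole at 200 ng/ml and collected by FACS as positive for histone H3 phosphorylated on its serine 10. All cells, asynchronous ones included, were lightly fixed with formaldehyde before digestion. This gave 4 groups of 3 libraries. Line, GATA1 and estradiol cannot be told apart in this design, nor can mitosis and nocodazole. The labels do not say that replicates were separate cultures, so p-values measure the spread between these libraries, which may be technical.

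ETS factors bind DNA through a shared winged helix-turn-helix domain that reads a GGAA core. Spi1 encodes PU.1, which directs myeloid and B-lymphoid development, and PU.1 and GATA1 are known to antagonise each other in blood progenitors. In the mouse, Spi1 is known to be controlled by its promoter together with an upstream regulatory element. Fli1, found as an integration site of Friend leukaemia virus, supports megakaryocytes, endothelium and blood stem cells. Etv6 encodes a transcriptional repressor that adult blood stem cells need and that is a frequent partner in leukaemic gene fusions.

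A promoter sequence was at hand for 1 of the 3 genes, Etv6. The 250 bases before its start (RefSeq, build GRCm38.p6, chr6:134035450-134035699, plus strand) are shown because the GGAA core that ETS factors read can be looked up in them. Capitals mark GGAA and its reverse complement TTCC.
Etv6 promoter: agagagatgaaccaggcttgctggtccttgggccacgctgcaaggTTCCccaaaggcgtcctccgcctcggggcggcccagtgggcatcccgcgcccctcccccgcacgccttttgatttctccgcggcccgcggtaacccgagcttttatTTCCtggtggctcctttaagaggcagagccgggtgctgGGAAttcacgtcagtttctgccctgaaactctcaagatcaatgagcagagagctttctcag
The core occurred 1 time on the plus strand and 2 times on the minus strand, and 93.4% of 32851 RefSeq promoters of this length held it on either strand. The longer ETS motif CCGGAA, held by 12% of promoters, and the GATA motif AGATAA, held by 9.99%, were not in these letters. The sequence has 60.4% G and C against a median of 52.4% over all promoters, and 16 CG pairs against a median of 6. Positions were not converted between mm9 and GRCm38, so no peak below is assigned to this promoter or to any exon or intron.

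Every list held 100000 peaks, ordered by a signal that the authors' peak caller gave. A rank of 1 is the highest signal, and a list with no peak in a region was given rank 100001. The median peak width ran from 356 to 1192 bp between lists, and the DNA covered ran from 45.0 to 181 Mb. A list of broad peaks can join neighbouring sites, which bears on every count of regions below. Depth per library is unknown, since the lists give no read counts.

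Spi1 was the most densely accessible of the 3 loci in every list. Per 100 kb of window, a list had 15.5 ± 2.42 regions at Spi1, 8.49 ± 2.88 at Etv6 and 4.17 ± 4.00 at Fli1 (SD, n = 12). Spi1 exceeded Fli1 in 12 of 12 lists by 11.3 regions per 100 kb on average, and Etv6 in 12 of 12 lists by 6.98 (exact sign-flip permutation test within lists, two-sided, p = 0.000488 for each, adjusted over 3 pairs p = 0.000732, the smallest the test allows being p = 0.000488). Etv6 exceeded Fli1 in 11 of 12 lists, and the mean difference of Fli1 minus Etv6 was -4.33 (exact p = 0.00342, adjusted p = 0.00342). The exception was G1E asynchronous replicate 1, which had 26 Fli1 regions where the other 11 lists had 2 to 10.

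**Figure D1:**
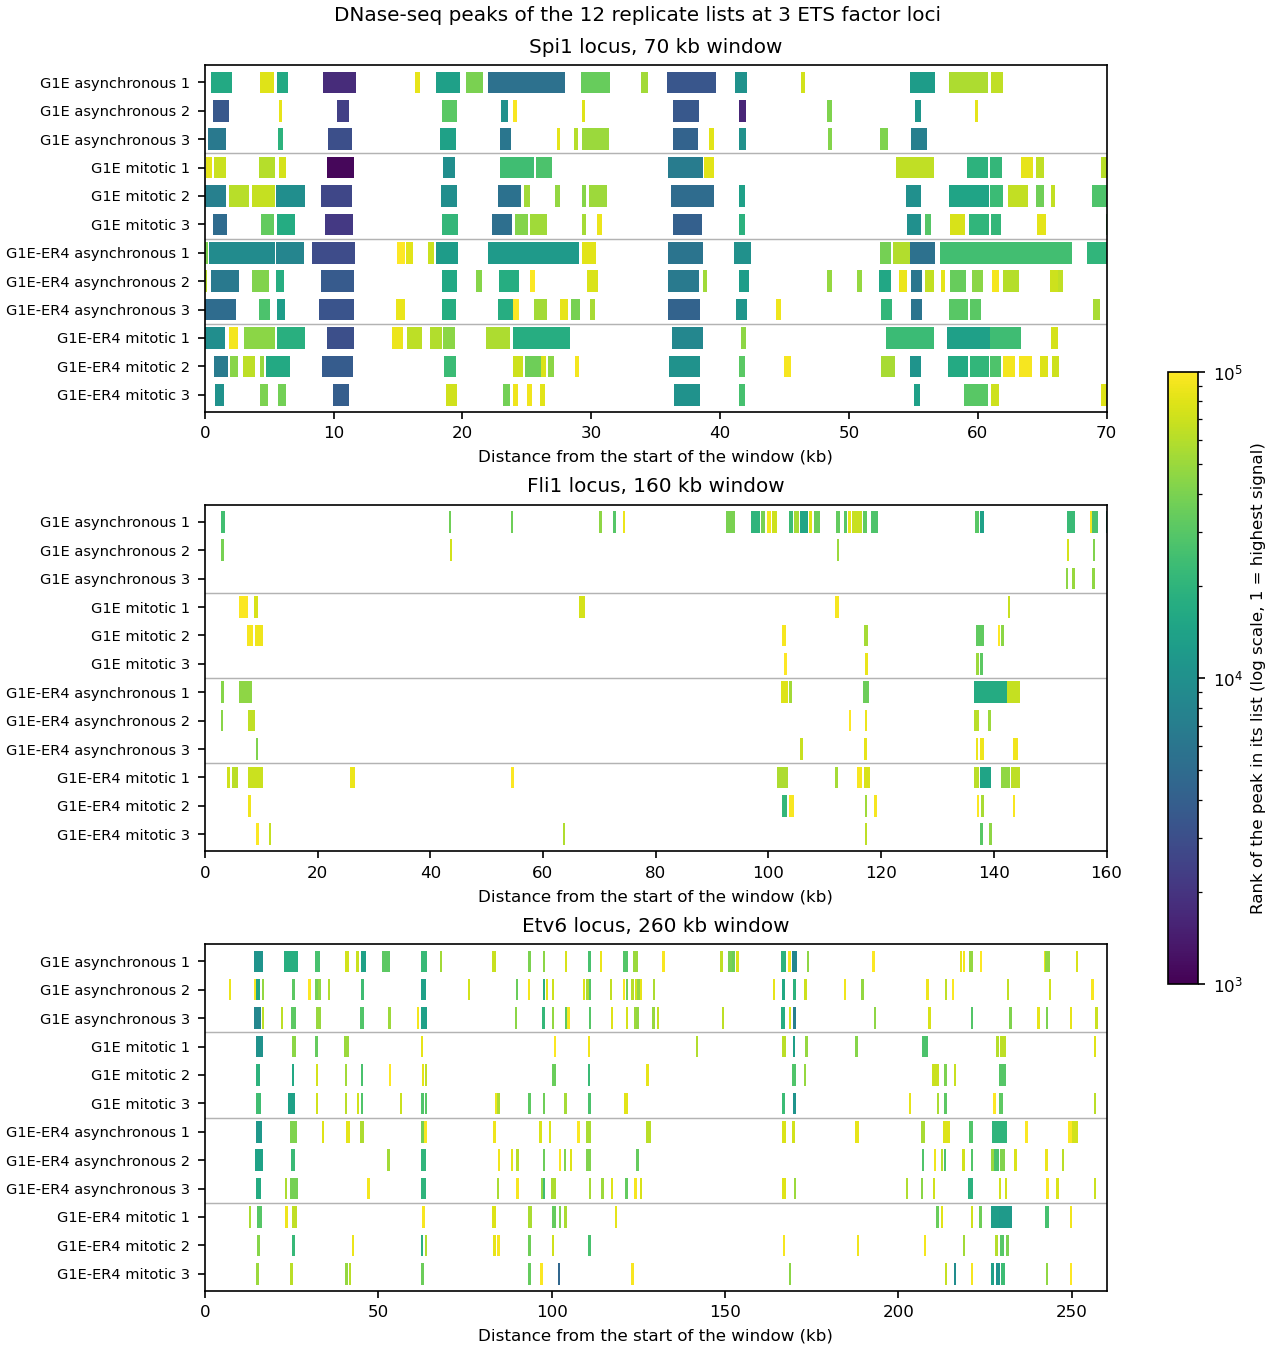
Position of every peak of the 12 single-library lists at the 3 loci, with distance from the start of the window in kb across and 1 row per library; colour gives the peak's rank in its list on a log scale, dark for the highest signals. Spi1 shows columns of dark peaks shared by all rows, Fli1 shows few peaks outside the top row (G1E asynchronous replicate 1), and Etv6 shows many narrow peaks that differ between rows.

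Peaks at Spi1 were also broader and higher in rank. The median width of its peaks was 1124 ± 515 bp (SD, n = 12) and lay above the list's own median in 12 of 12 lists. The corresponding widths were 615 ± 287 bp at Fli1, above the list's median in 3 lists, and 674 ± 199 bp at Etv6, above it in 4. Within lists, the Spi1 median exceeded that of Fli1 in 12 of 12 and that of Etv6 in 11 of 12. In the exception, mitotic G1E-ER4 replicate 3, it was 568 bp against 586 bp at Etv6. Peaks covered a median of 32.1% of the Spi1 window, against 2.58% of the Fli1 window and 7.24% of the Etv6 window. The best rank in a list was between 1076 and 3903 at Spi1, between 4612 and 18570 at Etv6 and between 13784 and 67581 at Fli1. Spi1 and Fli1 did not overlap in best rank, nor did Spi1 and Etv6. Between 1 and 7 Spi1 peaks of a list were among its 10000 highest, between 0 and 2 Etv6 peaks, and no Fli1 peak in any list.

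Support across libraries followed the same order. At Spi1, 7 of 19 regions (36.8%) had a peak in all 12 lists, at Etv6 3 of 86 (3.49%) and at Fli1 0 of 33, beside 6.15% of all regions in the genome. Of the Spi1 regions, 1 reaches past the end of the window and had a peak inside the window in 6 lists only. Cutting the genome into 37671 tiles of 70 kb gave a view of how unusual the Spi1 window is in these lists: 6 regions found in all 12 lists were centred in it, and 99.3% of tiles had fewer, with none in 78.0%. The Etv6 window had 3 such regions, and 79.9% of the 10135 tiles of 260 kb had fewer. The windows were placed on genes, whereas the tiles were not matched for genes, so these shares do not compare Spi1 or Etv6 with other gene loci. Regions seen in a single list made up 26.3% of Spi1, 54.5% of Fli1 and 50.0% of Etv6, beside 46.3% of all regions. At Fli1, 12 of these 18 single-list regions came from G1E asynchronous replicate 1, and at Etv6 25 of 43 came from the 3 G1E asynchronous lists.

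The strongest Spi1 site by mean rank in each group was chr2:90908346-90911768, where each list had 1 peak. Its ranks were 1764, 2397 and 3032 in asynchronous G1E, 1076, 2680 and 2149 in mitotic G1E, 2861, 3669 and 3318 in asynchronous G1E-ER4, and 3006, 3742 and 3903 in mitotic G1E-ER4. The 12 summits lay within 341 bp. All 12 lists thus placed it among their 10000 highest peaks, and the stages overlapped in both lines. The asynchronous lists of the lines overlapped, and the mitotic ones did not. By line the site stood 0.71 lower in G1E-ER4 on the log2 rank scale (exact permutation test, p = 0.0100), which did not pass adjustment over all regions (adjusted p = 0.179).

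A second strong Spi1 site, chr2:90935866-90939715, had its 12 summits within 92 bp, between positions 90936865 and 90936957. Ranks were 3440, 3510 and 4270 in asynchronous G1E and 6843, 4962 and 4045 in mitotic G1E. In G1E-ER4 they were 5850, 6576 and 4250 asynchronous and 8504, 10200 and 10336 mitotic. The G1E-ER4 stages did not overlap, while those of G1E did. The mean ranks were 3740 ± 460, 5283 ± 1426, 5559 ± 1190 and 9680 ± 1021 for G1E asynchronous, G1E mitotic, G1E-ER4 asynchronous and G1E-ER4 mitotic (SD, n = 3). On the log2 rank scale the site stood 0.64 lower in the list in mitosis (exact permutation test, p = 0.0100) and 0.73 lower in G1E-ER4 (p = 0.0100). Neither passed adjustment of the exact test over all 103666 regions tested (adjusted p = 0.0953 and 0.179).

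The site chr2:90921837-90929095 lay 13.6 kb from that one, measured between median summits, and 12.5 kb from the strongest site. Its ranks were 5465, 10069 and 6123 in asynchronous G1E and 24305, 5553 and 5271 in mitotic G1E. They were 12050, 17228 and 17651 in asynchronous G1E-ER4 and 17538, 36117 and 37187 in mitotic G1E-ER4. All 3 asynchronous G1E-ER4 lists placed it below all 3 asynchronous G1E lists, and the mitotic groups overlapped. The difference by line was 1.42 on the log2 rank scale (exact permutation test, p = 0.0150, adjusted p = 0.204).

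The other high-ranked Spi1 sites lay toward the ends of the window. The region chr2:90896628-90907789, which begins outside the window, held 2 to 7 peaks per list and ranks from 3499 to 60171. The region chr2:90952320-90956699 ranked 12434, 11190 and 7217 in asynchronous G1E and 64758, 9961 and 9910 in mitotic G1E. In G1E-ER4 it ranked 5467, 6233 and 5912 asynchronous and 23151, 10766 and 13414 mitotic, again without overlap of the stages in that line. Its difference by stage was 1.12 on the log2 rank scale (exact permutation test, p = 0.0300, adjusted p = 0.160).

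A weaker Spi1 site, chr2:90929216-90931481, was present in all 3 asynchronous G1E-ER4 lists, at ranks 81335, 77721 and 55224, and in none of the 3 mitotic ones. It was also in 3 asynchronous and 2 mitotic G1E lists, and it was missing from the authors' pooled list of mitotic G1E-ER4. This was the only region of the 86 with a peak in either G1E-ER4 group at the 3 loci to be asynchronous-only in that line, and 2.86% of all such regions in the genome were. Its asynchronous G1E-ER4 ranks all lay in the lower part of the lists.

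Of the Spi1 sites outside the naming rule, 3 were picked out after their values were seen. The site chr2:90941064-90942426 had 11 summits within 29 bp, and its ranks were 10437, 1650 and 10133 in asynchronous G1E. In mitotic G1E it was absent from replicate 1 and ranked 13520 and 18919 in the others. In G1E-ER4 it ranked 10105, 12668 and 11041 asynchronous and 45605, 30987 and 25628 mitotic, so the stages did not overlap in either line. Its difference by stage was 1.98 on the log2 rank scale, lower in mitosis, at the smallest p that the exact permutation test gives (p = 0.005, adjusted p = 0.0659). The other two, at the far end of the window, stood higher in mitosis: chr2:90957085-90967291 by a log2 rank difference of -1.39 (exact permutation p = 0.0100, adjusted p = 0.0953) and chr2:90968458-90983403 by -1.03 (p = 0.005, adjusted p = 0.0659). The last of these is the region that runs past the window, and counting its in-window peaks alone leaves it in 6 lists.

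**Figure D2:**
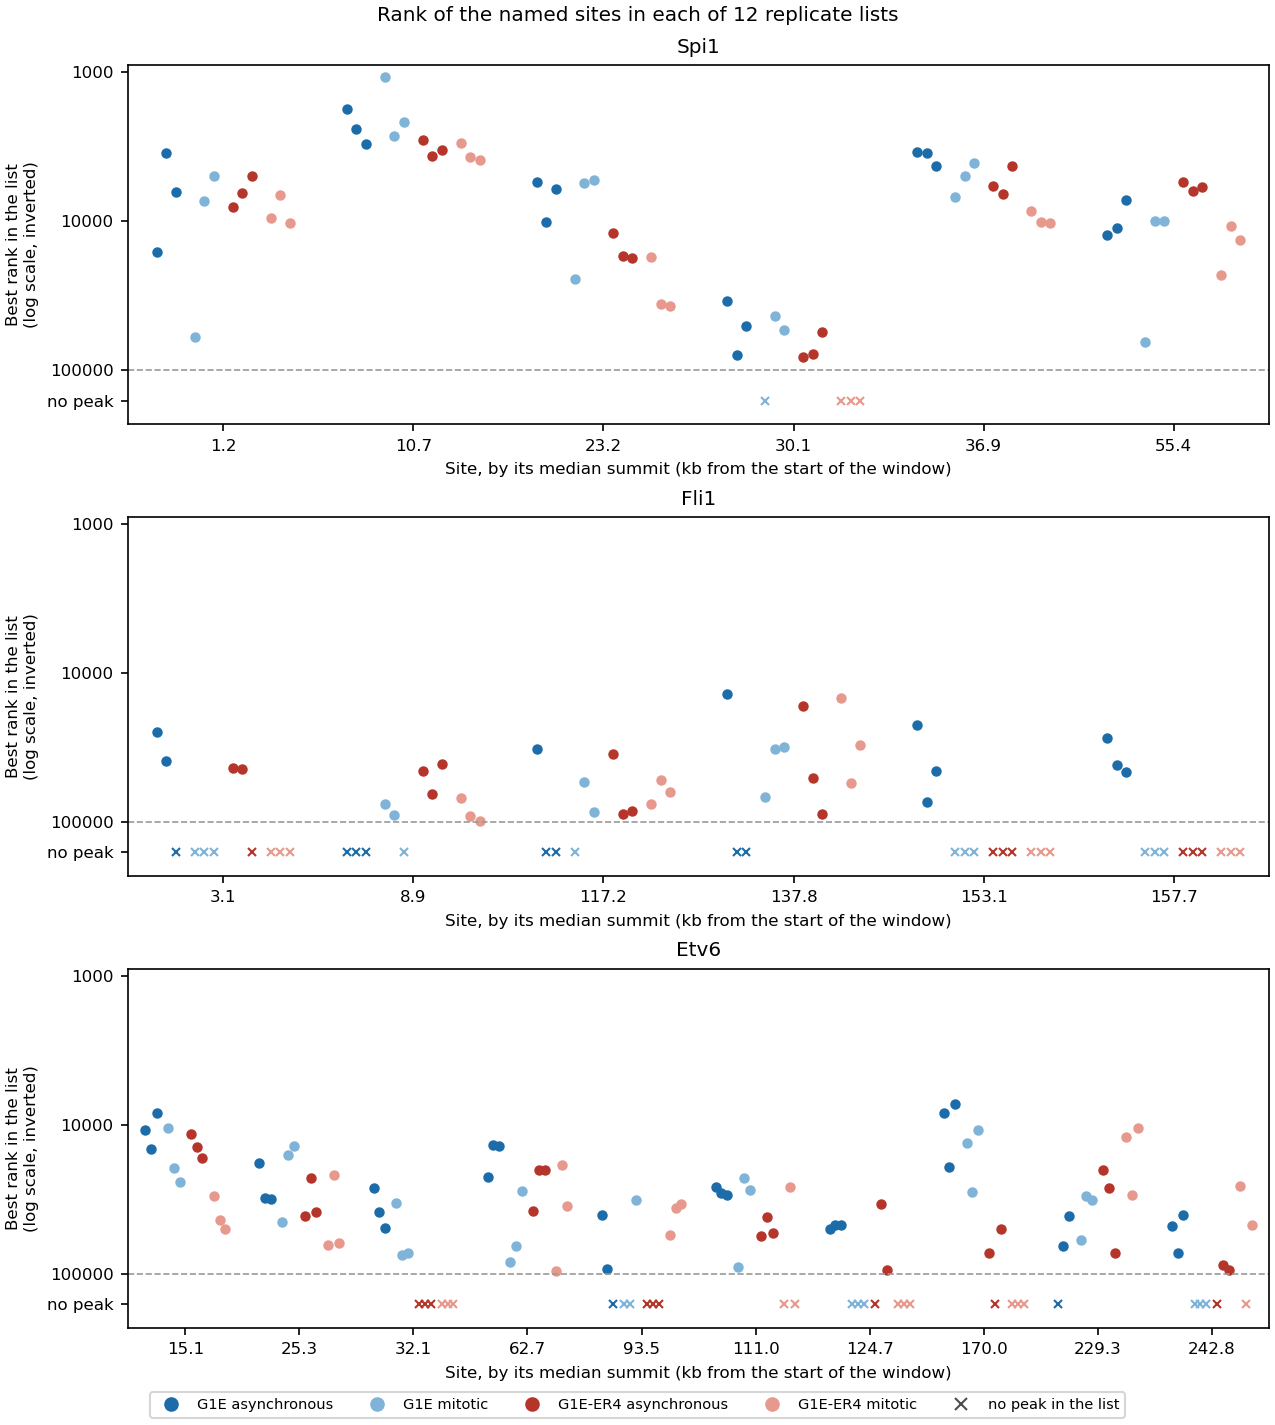
Best rank of each named site in each of the 12 lists, on an inverted log axis so that stronger sites are higher, with sites ordered by the position of their median summit in kb from the start of the window; each point is 1 list, coloured by group, and a cross marks a list with no peak. The Spi1 sites at 10.7 and 36.9 kb stay near or above rank 10000 in all lists, all Fli1 points lie below it, and the Etv6 site at 170.0 kb is high in both G1E groups and missing or low in G1E-ER4.

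Fli1 had no region common to all 12 lists and no peak among the 10000 highest. Its best-ranked region, chr9:32346443-32354702, was broad at 8260 bp and was found in 10 lists and in all 4 pooled lists. Ranks were 13784 in asynchronous G1E replicate 1 and absent in the other two, then 67581, 32515 and 31279 in mitotic G1E. In G1E-ER4 they were 16791, 50676 and 87941 asynchronous and 14715, 54548 and 30366 mitotic. All 4 groups overlapped.

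A pair of Fli1 sites near the end of the window was found in asynchronous G1E alone. The site chr9:32362842-32364367 ranked 22483, 73756 and 45610 in the 3 asynchronous G1E lists and had no peak in the other 9. The site chr9:32367484-32368525, 4.60 kb away, ranked 27339, 41616 and 46404 in those lists, with summits within 6 bp, and also had no peak in the other 9. Among the pooled lists, both appeared in that of asynchronous G1E alone. They account for the 2 of 28 Fli1 regions that were asynchronous-only in G1E. Over the 3 loci 4 of 112 regions with a peak in either G1E group had this pattern, beside 3.99% of 197615 regions in the genome, so their share is near the background.

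The opposite order by line was seen at chr9:32216012-32220311. It was absent from all 3 asynchronous G1E lists and present in all 3 asynchronous G1E-ER4 lists at ranks 45843, 64456 and 40798. It was in 2 mitotic G1E lists, at 75534 and 89666, and in all 3 mitotic G1E-ER4 lists, at 69367, 91353 and 97848. It was the only region of 124 at the 3 loci to be G1E-ER4-only in asynchronous cells, against 2.65% of 196627 regions genome-wide. Its difference by line was -0.53 on the log2 rank scale (exact permutation test, p = 0.0400, adjusted p = 0.302).

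Of the other named Fli1 sites, chr9:32326759-32327978 was in 9 lists with summits within 137 bp, and its ranks ran from 32551 to 87841. It was in 1 of 3 asynchronous and 2 of 3 mitotic G1E lists and in all 6 G1E-ER4 lists. The site chr9:32212820-32213565 was found only in asynchronous cells, in 2 lists of each line, at ranks 24774 and 38709 in G1E and 43382 and 43929 in G1E-ER4. It therefore met neither pattern that asks for all 3 lists.

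Etv6 had the most regions, and its stronger sites lay along most of the window. The site chr6:133984147-133986911, in all 12 lists, ranked 10780, 14638 and 8403 in asynchronous G1E and 10511, 19399 and 24355 in mitotic G1E. It ranked 11600, 14189 and 16800 in asynchronous G1E-ER4 and 29875, 43537 and 50040 in mitotic G1E-ER4. The G1E-ER4 stages did not overlap, and the difference by stage was 1.08 on the log2 rank scale (exact permutation test, p = 0.0150, adjusted p = 0.12).

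The other Etv6 regions common to all lists were chr6:133992775-133996796, with ranks from 13916 to 64237, and chr6:134032255-134034184, with ranks from 13581 to 96002. The latter ranked 22310, 13581 and 13796 in asynchronous G1E and 83726, 64727 and 27905 in mitotic G1E, without overlap. In G1E-ER4 it ranked 38142, 20232 and 20079 asynchronous and 96002, 18570 and 35363 mitotic, with overlap. Its difference by stage over both lines was 1.20 (exact permutation test, p = 0.0450, adjusted p = 0.196).

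The largest difference by line among the named sites was at Etv6 chr6:134139252-134140798. It ranked 8350, 19197 and 7222 in asynchronous G1E and 13297, 28215 and 10821 in mitotic G1E. In asynchronous G1E-ER4 it ranked 72825 and 50263 in replicates 1 and 3 and was absent from replicate 2, and it was absent from all 3 mitotic G1E-ER4 lists and from their pooled list. The 8 summits lay within 68 bp. The lines did not overlap at either stage, and the site stood 2.71 lower in G1E-ER4 on the log2 rank scale, where an absent peak counts as rank 100001 (exact permutation test, p = 0.005, the smallest possible, adjusted p = 0.121).

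A second Etv6 site, chr6:134001826-134003533, was found in all 6 G1E lists and in none of the 6 G1E-ER4 lists. Ranks were 26414, 38315 and 49522 in asynchronous G1E and 33688, 74777 and 72768 in mitotic G1E. It was in both pooled G1E lists and in neither pooled G1E-ER4 list. Its difference by line was 1.13 on the log2 rank scale (exact permutation test, p = 0.005, adjusted p = 0.121). With these sites, 3 of 124 regions at the 3 loci were G1E-only in asynchronous cells (2 at Fli1 and 1 at Etv6) beside 2.90% of all regions. In mitotic cells 2 of 69 were G1E-only, both at Etv6, beside 0.885% of 174371 regions. No region was G1E-ER4-only in mitotic cells, where the genome had 0.816%.

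One broad Etv6 region went the other way. The region chr6:134196812-134202660, 5849 bp wide, was absent from asynchronous G1E replicate 1 and ranked 64975 and 41048 in replicates 2 and 3, and 59506, 29946 and 32167 in mitotic G1E. It ranked 20147, 26637 and 72817 in asynchronous G1E-ER4 and 12104, 29447 and 10594 in mitotic G1E-ER4. The mitotic groups did not overlap, and the difference by line was -1.12 (exact permutation test, p = 0.0350, adjusted p = 0.299).

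The Etv6 sites with a presence pattern by stage had lower ranks. The site chr6:134093446-134095040 ranked 50258, 47084 and 47220 in asynchronous G1E and was absent from all mitotic lists of both lines. In asynchronous G1E-ER4 it was absent from replicate 1 and ranked 33963 and 94233 in the others. The site chr6:134212357-134213704 ranked 47539, 72355 and 40248 in asynchronous G1E, was absent from mitotic G1E, and was in 2 lists of each G1E-ER4 group. In the other direction, chr6:134063123-134064232 was absent from asynchronous G1E-ER4 and ranked 55298, 36426 and 33836 in mitotic G1E-ER4. It was the only mitotic-only region of the 3 loci in that line, beside 0.639% of 175748 regions, yet the pooled asynchronous G1E-ER4 list did hold a peak there. In G1E the site was in 2 asynchronous lists and 1 mitotic list. No region of the loci was mitotic-only in G1E, where the genome had 2.94%. The remaining named Etv6 site, chr6:134079870-134081293, was in 10 lists at ranks from 22806 to 90357 and was missing from mitotic G1E-ER4 replicates 1 and 3.

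The whole-locus comparison by stage asked whether fewer accessible regions were found in mitosis. At Etv6, lists had 34, 34 and 31 regions in asynchronous G1E and 15, 16 and 21 in mitotic G1E. In G1E-ER4 they had 22, 23 and 24 asynchronous and 17, 13 and 15 mitotic. The stages did not overlap in either line. Group means were 33.0 ± 1.73 and 17.3 ± 3.21 in G1E and 23.0 ± 1.00 and 15.0 ± 2.00 in G1E-ER4 (SD, n = 3). Averaged over the lines, mitotic lists had fewer regions, with a difference of -11.8 (exact permutation test within lines, two-sided, p = 0.005, adjusted over 6 tests p = 0.0300). Regions found in no other list numbered 8, 11 and 6 in asynchronous G1E and 1, 0 and 2 in mitotic G1E. In G1E-ER4 they numbered 4, 4 and 4 asynchronous and 2, 1 and 0 mitotic. Part of the difference thus rests on regions without support in a second library. The same exact test by stage on 5880 tiles of 260 kb with at least 10 regions found fewer regions in mitosis at an unadjusted p under 0.05 in 18.7%, and 3.74% had a difference as low as that of Etv6 or lower. The tiles were not matched for their number of regions. The Etv6 window had 86 regions centred in it against a median of 15 over all 10135 tiles of 260 kb, and 96.9% of these had fewer. A count difference can be larger where more regions lie, so the 3.74% does not compare proportional losses. With the 50000 highest peaks of each list the Etv6 difference was -3.83 (exact permutation test, adjusted p = 0.130). Without both replicate 1 lists of G1E, a choice made after seeing the data, it was -11.5 (exact permutation p = 0.0167, adjusted p = 0.0600). That p is the smallest the test allows with the lists that remain.

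At Spi1 the regions per list were 14, 11 and 10 in asynchronous G1E and 8, 10 and 10 in mitotic G1E. They were 12, 13 and 12 in asynchronous G1E-ER4 and 11, 10 and 9 in mitotic G1E-ER4. Means were 11.7 ± 2.08, 9.33 ± 1.15, 12.3 ± 0.577 and 10.0 ± 1.00 (SD, n = 3), a difference by stage of -2.33 (exact permutation test, p = 0.0150, adjusted p = 0.0450), and 15.8% of the 11692 tiles of 70 kb with at least 10 regions passed the same unadjusted test. The difference turned to 1.17 (exact permutation test, adjusted p = 0.995) when each peak was cut to 300 bp around its summit, and to 1.00 (adjusted p = 0.995) when peaks were counted in place of regions. It was -2.00 (exact permutation test, adjusted p = 0.0600) with peaks inside the window alone, a choice made after the first result was seen, and -1 (adjusted p = 0.555) with the 50000 highest peaks. The call was also lost on leaving out asynchronous G1E replicate 1 (exact permutation test, adjusted p = 0.0525), mitotic G1E replicate 1 (0.0900) or asynchronous G1E-ER4 replicate 1 (0.465, with a difference of -1.42), replicate 2 (0.0600) or replicate 3 (0.0600). With labels exchanged only between libraries of the same line and replicate number, it was lost too (exact permutation p = 0.0625, adjusted p = 0.125).

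At Fli1 the lists had 26, 5 and 2 regions in asynchronous G1E, 4, 4 and 3 in mitotic G1E, 6, 5 and 4 in asynchronous G1E-ER4 and 10, 6 and 5 in mitotic G1E-ER4. The difference by stage of -2.67 was within the spread (exact permutation test, p = 0.895, adjusted p = 0.995). It rested on asynchronous G1E replicate 1, since it was 0.833 without that list (exact permutation test, adjusted p = 0.525). The stage difference was not shown to vary with the line at any locus. The test exchanged line labels within stage, so a difference by line alone can also raise its p. A high p therefore does not show that the stage differences were equal. At Etv6 the mean of asynchronous minus mitotic lists was higher in G1E by 7.67 regions (exact permutation test, p = 0.130, adjusted p = 0.390), and at Spi1 it was equal in the lines. At Fli1 the means were 11.0 asynchronous and 3.67 mitotic in G1E but 5.00 and 7.00 in G1E-ER4, so the sign differed between the lines. The difference between the lines was 9.33 (exact permutation test, p = 0.265, adjusted p = 0.398), and it was 2.33 without asynchronous G1E replicate 1 (adjusted p = 0.445).

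**Figure D3:**
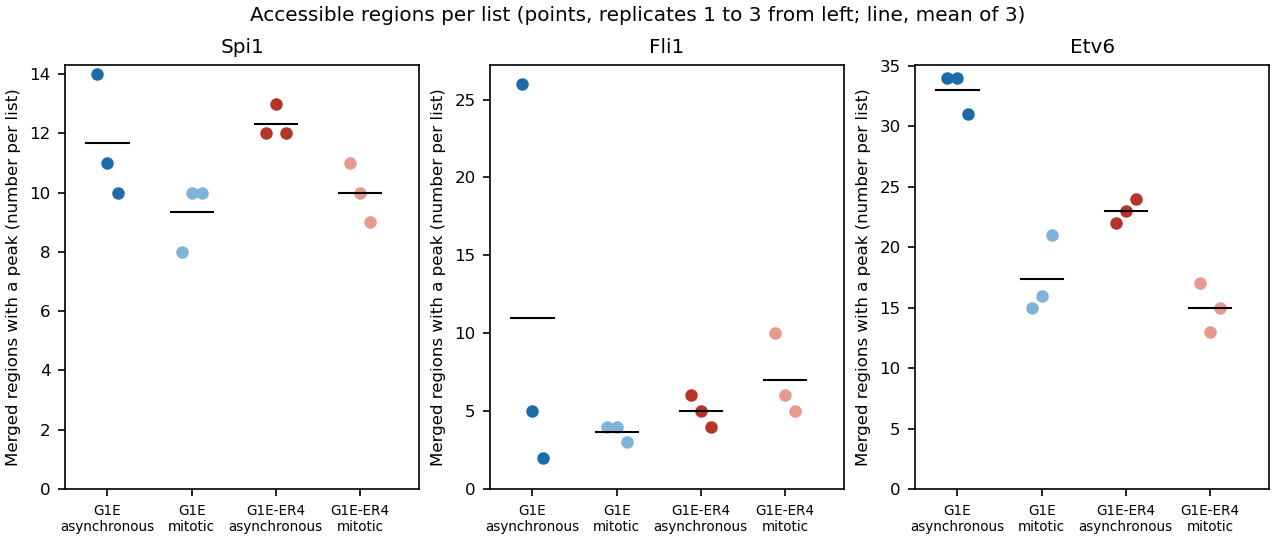
Number of merged regions with a peak in each list, by locus and group; points are replicates 1 to 3 from left to right and the line is the mean of 3. The Etv6 asynchronous lists of G1E lie at 31 to 34 and its mitotic lists at 15 to 21, while at Fli1 a single list reaches 26.

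**Figure D4:**
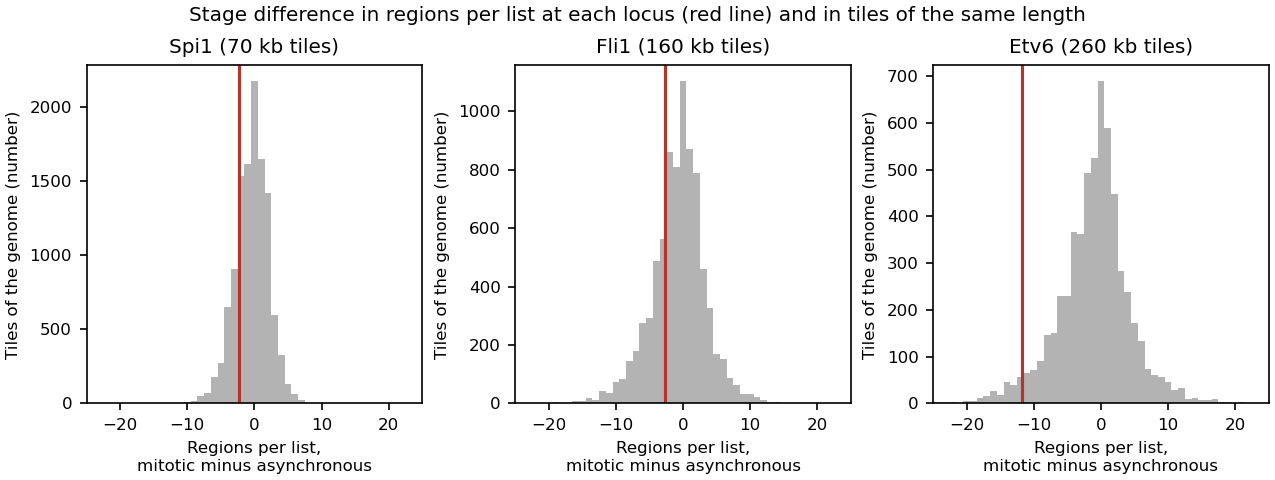
Difference in regions per list, mitotic minus asynchronous and averaged over the lines, in all genome tiles of the same length as each window with at least 10 regions (grey, number of tiles), with the locus as a red line. The Etv6 value of -11.8 lies in the lower tail, where 3.74% of tiles are as low or lower, while the Spi1 and Fli1 values of -2.33 and -2.67 lie within the bulk. Tiles were not matched to the windows for number of regions: the Etv6 window had 86 centred in it against a median of 15 over all tiles of 260 kb.

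By line, Etv6 had fewer regions in G1E-ER4, with a mean difference of -6.17 (exact permutation test within stages, two-sided, p = 0.0250) that did not fall below the threshold after adjustment (adjusted p = 0.05). The asynchronous lists did not overlap, at 31 to 34 in G1E and 22 to 24 in G1E-ER4, whereas the mitotic lists did. Of the 260 kb tiles, 6.94% had fewer regions in G1E-ER4 at an unadjusted p under 0.05. Spi1 differed by 0.667 (exact permutation p = 0.500, adjusted p = 0.750) and Fli1 by -1.33 (p = 0.995, adjusted p = 0.995). The Fli1 value became 2.17 (exact permutation test, adjusted p = 0.0525) without asynchronous G1E replicate 1. Chromosome 2, which holds the Spi1 window, had 6146 to 7969 peaks in the G1E lists and 9582 to 11179 in the G1E-ER4 lists. Any bearing of this on the comparisons by line was not tested.

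Regions that all 3 asynchronous lists of a line shared were looked up in each mitotic list. At Spi1, 92.6% ± 12.8 of 9 such regions in G1E and 90.0% of 10 in G1E-ER4, the same in each mitotic list, had a mitotic peak (SD over 3 mitotic lists). A broad region counts as found wherever in it the mitotic peak lies. With each peak cut to 300 bp around its summit the Spi1 shares were 91.7% in G1E and 78.8% in G1E-ER4. With the 50000 highest peaks of each list they were 85.7% and 96.3%. At Etv6 the shares were 66.7% ± 14.4 of 12 regions in G1E and 70.4% ± 6.42 of 9 in G1E-ER4, and with the 50000 highest peaks of each list they were 63.0% and 41.7%. At Fli1 none of 2 regions was found in mitotic G1E and 3 of 3 were found in mitotic G1E-ER4. Over the genome, with uncut peaks and full lists, the shares were 66.7% ± 7.38 in G1E and 75.2% ± 3.52 in G1E-ER4. These shares rest on few regions per locus and were not tested.

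Of the 138 regions, 54 had a peak in at least 3 lists and entered the rank test that ran over 103666 regions of the genome: 13 at Spi1, 9 at Fli1 and 32 at Etv6. None passed the adjusted threshold by stage or by line, and no region of the genome did, the smallest adjusted p being 0.0659 by stage and 0.121 by line. These are the adjusted values of p = 0.005, the smallest that the exact permutation test gives. Here the adjusted test could therefore call no region, whatever its difference. At an unadjusted p under 0.05 in the exact permutation test, 9 regions of the loci stood lower in mitosis (3 at Spi1 and 6 at Etv6), beside 12.3% of all regions tested, and 2 stood higher (both at Spi1), beside 9.36%. By line 8 stood lower in G1E-ER4 (3 at Spi1 and 5 at Etv6), beside 5.38%, and 3 stood higher (1 at Fli1 and 2 at Etv6), beside 7.69%. The median difference by stage was 0.48 at Spi1, 0.30 at Fli1 and 0.15 at Etv6 on the log2 rank scale, positive meaning lower in mitosis, and -0.02 over all regions. By line it was 0.24, 0.17 and 0.14, and -0.01 over all regions.

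The authors' pooled lists gave 18, 14, 15 and 14 peaks at Spi1 for G1E asynchronous, G1E mitotic, G1E-ER4 asynchronous and G1E-ER4 mitotic. In the same order they gave 24, 9, 8 and 9 at Fli1 and 40, 24, 26 and 20 at Etv6. The single lists of asynchronous G1E had 28, 5 and 3 Fli1 peaks in replicates 1, 2 and 3. How far the pooled 24 rests on replicate 1 was not tested. The best pooled ranks were 1972, 1583, 3385 and 3102 at Spi1 and 8434, 12371, 13171 and 14012 at Etv6. At Fli1 they were 18448, 30362, 22883 and 16356. Spi1 thus led the 3 loci by best rank in each pooled list, as in the single-library lists, and each pooled value stands for 1 list without replicates. The pooled lists were made from the same replicates, so they are not separate evidence.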

How the data were processed

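DNase-seq was done in 12 libraries in 4 groups of 3. The submitters' processing notes name Bowtie and build mm9. The caller of the peaks, like the Bowtie version, is not given in the sources used here. In all, the authors deposited 16 headerless peak lists, 12 for single libraries and 4 for groups with replicates pooled, each with 100000 peaks in descending order of a signal of unstated normalization. The deposited signal was used only as a rank within a list. A summit offset accompanies each peak.

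Regions were the union of the 12 lists on 19 autosomes and X, merged at 1 bp. The fixed length of the lists makes the rank of a site depend on all other sites, and broad peaks join sites. Exact permutation tests exchanged labels within line or stage (400 arrangements, smallest p = 0.005) with Benjamini-Hochberg adjustment and a threshold of 0.05. Named sites were the 5 of best mean rank per locus and those in all 3 lists of a group and none of its counterpart. The loci, lists and tests were chosen with earlier results of these data known. The calculations were tested on simulated data. Alternatives were each library left out, the 50000 highest peaks, 300 bp summits, 0.5 overlap, a replicate block, peak counts, windows shortened by 10 kb at each end, regions of at least 6 lists, and pooled lists. Added after seeing the data were leaving out both replicate 1 lists of G1E, the tiles, and peaks inside the window alone. Other ETS genes and marker genes were not analysed here for want of an mm9 annotation. Python 3.11.15, numpy 2.4.6, pandas 2.3.3, scipy 1.17.1 and matplotlib 3.10.9 were used.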

Additional observations from a re-analysis of the deposited data

How the results depend on the processing

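Leaving out each library in turn gave ranges of -2.75 to -1.42 for the Spi1 stage difference, which lost its call as described, -12.6 to -11.2 for Etv6 by stage, called each time, and -4.92 to 0.833 for Fli1 by stage. By line the ranges were 0.25 to 1.42 at Spi1, -3.58 to 2.17 at Fli1 and -6.75 to -5.08 at Etv6, which passed the threshold only without mitotic G1E replicate 1 (-6.75, exact permutation test, adjusted p = 0.0450). The density differences kept direction and call in all settings run. The Spi1 stage difference was -1 (exact permutation test, adjusted p = 0.555) with the 50000 highest peaks, -1.42 (adjusted p = 0.100) without both replicate 1 lists of G1E and -2.00 (adjusted p = 0.0600) with peaks inside the window alone; it reversed to 1.17 with 300 bp summits and to 1.00 with peak counts. Etv6 by stage was -3.83 with the 50000 highest peaks and -11.5 without both G1E replicate 1 lists. Leaving out both also reversed Fli1 to 0.750 by stage and 2.25 by line, against 0.833 and 2.17 without asynchronous G1E replicate 1 alone. The causes were not tested.

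Regions that every list of a group shared and its counterpart lacked numbered 4 asynchronous-only and 0 mitotic-only in G1E, 1 and 1 in G1E-ER4, 3 G1E-only and 1 G1E-ER4-only in asynchronous cells, and 2 and 0 in mitotic cells. In that order of 8 counts, leaving out 1 library gave 4 to 8, 0 to 2, 1 to 3, 1 to 1, 3 to 7, 1 to 4, 2 to 4 and 0 to 4. The authors' pooled lists gave 42, 7, 25, 10, 36, 13, 15 and 12, since 1 pooled list against 1 is a looser rule. With the 50000 highest peaks the counts that moved were 1 asynchronous-only, 1 mitotic-only and 1 mitotic G1E-only region in G1E, 0 mitotic-only in G1E-ER4 and 5 G1E-only in asynchronous cells. With 300 bp summits they were 1 mitotic-only in G1E and 3 asynchronous-only in G1E-ER4. Without both G1E replicate 1 lists they were 8 asynchronous-only and 5 mitotic-only in G1E, 5 G1E-ER4-only in asynchronous and 4 G1E-only in mitotic cells. With peaks inside the window alone, 1 region was mitotic-only in G1E.

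Among regions of at least 6 lists, 2 of the loci passed by stage (exact permutation test over 56938 regions, of which 13.8% passed, smallest adjusted p = 0.0362), namely Spi1 chr2:90941064-90942426 and chr2:90968458-90983403, and 0 by line (smallest adjusted p = 0.0665). The overlap of 0.5 changes nothing by construction, since a peak lies within its region. The replicate block left 64 arrangements and gave adjusted p = 0.125 for both Spi1 (-2.33) and Etv6 (-11.8) by stage; correlations of same-numbered libraries ran from -0.03 to 0.25, with 7 of 12 over 0.1, and no contrast had all of its pairs over 0.1, so the numbers were not taken as pairs. Replicate 1 nonetheless correlated best with its own number in all 4 contrasts (0.19 to 0.25, against at most -0.05 with another number), a hint from the data and not from the labels, and the other numbers did not do so throughout. In each group replicate 1 also had the widest median peak. It was 760 bp in asynchronous and 942 bp in mitotic G1E, and 1192 bp in asynchronous and 922 bp in mitotic G1E-ER4. Regions of the loci at an unadjusted p under 0.05 in the rank test, 11 by stage and 11 by line, numbered 4 and 4 under the block, 9 and 7 with the 50000 highest peaks, and 6 and 10 without both G1E replicate 1 lists.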

Other observations

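The highest Etv6 rank of any list, 4612, belonged to mitotic G1E-ER4 replicate 3 at chr6:134071742-134072394. Among the other single-library lists, the site was found only in asynchronous G1E-ER4 replicate 2, at rank 97483, and mitotic G1E-ER4 replicate 1, at rank 41117. All 4 pooled lists, those of G1E included, had a peak that overlapped it. It was picked out after its values were seen.

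A group of Etv6 sites outside the naming rule, also picked out after their values were seen, ranked high in asynchronous G1E. The site chr6:134136182-134137545 ranked 19171, 15799 and 17196 there and 62491 and 23191 in mitotic G1E replicates 1 and 3. In G1E-ER4 it ranked 77540 and 79845 in asynchronous replicates 1 and 3 and 93215 in mitotic replicate 2. The site chr6:134014767-134016473 ranked 13990, 24028 and 28478 in asynchronous G1E and 26515 and 28124 in mitotic G1E replicates 2 and 3. Its single G1E-ER4 peak, in asynchronous replicate 1, ranked 56728. By line these sites differed by 1.60 and 1.61 on the log2 rank scale (exact permutation test, p = 0.0200 and adjusted p = 0.204 for each).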
